A study of Homo sapiens with 8 samples.

Results

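The comparison concerned the input RNA of 3 cultures of one Cas9 clone, each carrying a different guide RNA against METTL16 (sgMETTL16-1, sgMETTL16-2 and sgMETTL16-3), set beside a culture with a negative control guide (sgNS). These 4 input libraries were taken from 8 in all, and the other 4 are ribosome footprint libraries of the same cultures. Genes entered when their mean over the 4 inputs was at least 1 TPM, a share of the library's transcripts scaled by gene length, which left 10967 of 26830 symbols, 9917 of them protein-coding. At the edge of that rule CHI3L2 had a mean of 1 TPM and DGKA a mean of 0.9975 TPM. The question addressed was how far the guides differ from one another, with sgMETTL16-1 and sgMETTL16-2 as one arm and sgMETTL16-3 as the other, and which guide lies nearest the control.

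METTL16 is an RNA methyltransferase that places N6-methyladenosine on the U6 small nuclear RNA and on hairpins of the MAT2A transcript, and MAT2A makes S-adenosylmethionine, the methyl donor of the cell. Guides directed at one gene cut at different places, and cultures carrying them can differ in the alleles made, in off-target cuts and in growth during selection. Agreement between guides is therefore the usual check on a knockout.

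All 4 cultures came from a single Cas9-expressing clone labelled HEK293T, a human embryonic kidney line. They were selected in 10 µg/ml blasticidin and 2 µg/ml puromycin for at least 1 week, and were given 100 µg/ml cycloheximide for 5 min before harvest. Each guide was 1 culture, so no value below has a replicate error of its own. Markers went against the label: no input had any of 14 hepatocyte markers below 10 TPM, while 9 of 16 markers listed for HEK293 cells were under 1 TPM in each, with NEFL, NEFM and VIM at 0. The summed hepatocyte markers stood at 6760 TPM in sgNS, 11600 in sgMETTL16-1, 11800 in sgMETTL16-2 and 7870 in sgMETTL16-3.

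The libraries also differed in make-up. The 7SL and 7SK RNAs (RN7SL1, RN7SL2 and RN7SK) took 67.1% of all TPM in sgNS, 55.9% in sgMETTL16-1, 55.2% in sgMETTL16-2 and 60.5% in sgMETTL16-3. Protein-coding genes took 20.3%, 25.4%, 26.3% and 20.1% in the same order. On the log2(TPM + 1) scale the median tested gene stood at 2.45 in sgNS, 3.08 in sgMETTL16-1, 3.23 in sgMETTL16-2 and 2.62 in sgMETTL16-3. Each library was therefore centred on its median gene, and every log2 difference below is on that centred scale, whereas TPM values are as deposited. A gene with equal TPM in sgMETTL16-2 and sgMETTL16-3 is thus lower in sgMETTL16-2 after centring. The part of library composition in the differences was not tested.

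The targeted transcript did not set the guides apart. METTL16 stood at 5.31 TPM in sgNS, 4.72 in sgMETTL16-1, 5.25 in sgMETTL16-2 and 4.16 in sgMETTL16-3. The difference between the first 2 guides and the third was -0.33 (SE 0.34, limma adjusted p = 0.657). A guide can disrupt a protein without lowering its transcript, so this level does not check the knockout. MAT2A stood at 16.9 TPM in sgNS, 27.5 in sgMETTL16-1, 20.8 in sgMETTL16-2 and 11.4 in sgMETTL16-3, a difference of 0.46 (SE 0.30, limma adjusted p = 0.545). After centring, MAT2A was 0.04 from sgNS in sgMETTL16-1, -0.50 in sgMETTL16-2 and -0.69 in sgMETTL16-3. METTL16 was -0.78, -0.80 and -0.46 from sgNS. Neither gene passed the test between guides.

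On the centred scale sgMETTL16-1 was the middle guide, and the guides did not divide as 2 against 1. sgMETTL16-1 lay between the other guides for 55.2% of genes, against 21.5% for sgMETTL16-2 and 23.3% for sgMETTL16-3. Centring alone puts sgMETTL16-1 in the middle for a gene of equal TPM in the guides. A value of 0 TPM became -0.24 in sgMETTL16-1, -0.39 in sgMETTL16-2 and 0.23 in sgMETTL16-3. With no filter on low values the share of sgMETTL16-1 was 67.4%. The part of this built-in order in the shares was not tested. The median absolute log2 difference was 0.24 between sgMETTL16-1 and sgMETTL16-2, 0.25 between sgMETTL16-1 and sgMETTL16-3, and 0.42 between sgMETTL16-2 and sgMETTL16-3. Genes at least 2-fold apart numbered 127, 166 and 205 in those pairs, the last being 1.87% of genes. The first 2 guides were thus about as far from each other as sgMETTL16-1 was from the third. This arrangement rested on the centring: with TPM as deposited the medians were 0.21, 0.42 and 0.40, so that sgMETTL16-3 stood apart from the other 2, and genes 2-fold apart numbered 219, 474 and 2059. Among genes with a mean of at least 10 TPM, centred, they were 0.18, 0.27 and 0.27. sgMETTL16-1 remained the guide most often in the middle, for 47.9% and 42.8% of genes under these settings. sgMETTL16-2 came close behind there, with 39.3% and 37.1%.

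Against the control, sgMETTL16-2 lay farthest. Its median absolute difference from sgNS was 0.42, with 1073 genes at least 2-fold apart, compared with 0.24 and 348 genes for sgMETTL16-1 and 0.26 and 627 genes for sgMETTL16-3. Gene by gene, sgNS was nearest to sgMETTL16-3 for 42.4% of genes, to sgMETTL16-1 for 39.7% and to sgMETTL16-2 for 17.9%. A value of 0 TPM became 0.40 in sgNS after centring, so for equal low values sgMETTL16-3 is placed nearest and sgMETTL16-2 farthest. The order of sgMETTL16-1 and sgMETTL16-3 depended on the scaling: sgMETTL16-3 was nearest for 66.2% of genes with TPM as deposited, while sgMETTL16-1 led with 43.1% against 35.8% among genes with a mean of at least 10 TPM. sgMETTL16-2 was the least often nearest under every setting run. These 3 comparisons share the single sgNS library.

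**Figure D1:**
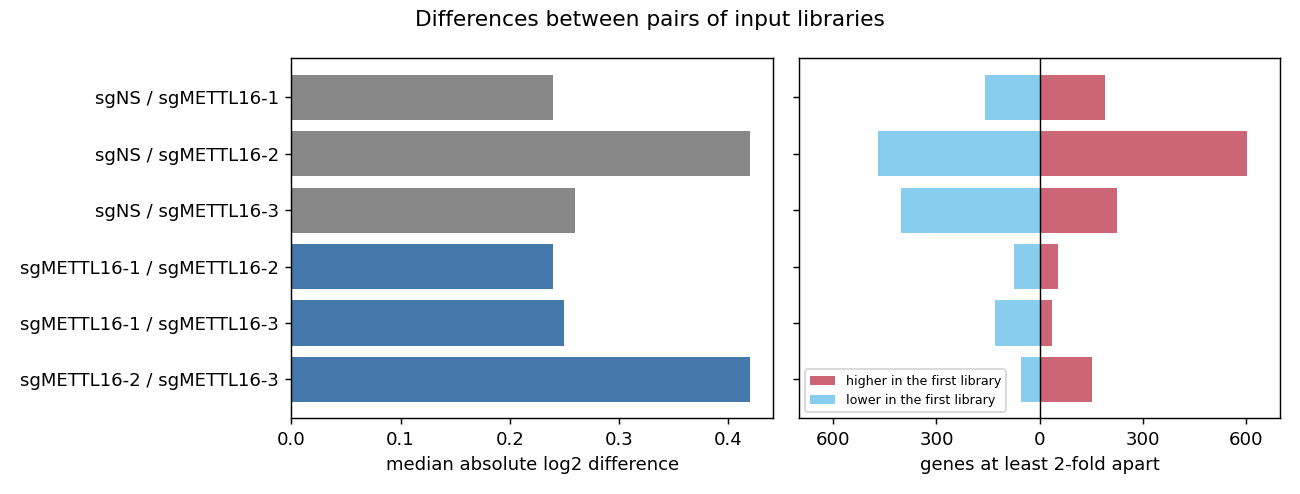
Median absolute log2 difference (left, centred log2(TPM + 1)) and number of genes at least 2-fold apart (right) for the 6 pairs of input libraries over 10967 genes; grey bars are pairs with sgNS and blue bars pairs of guides. The pairs sgNS with sgMETTL16-2 and sgMETTL16-2 with sgMETTL16-3 have the longest bars on the left, both at 0.42.

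The number of genes that separated both guides from the third depended on the scaling. At least 2-fold differences from sgMETTL16-3 in the same direction in sgMETTL16-1 and in sgMETTL16-2 were found for 17 genes, 6 higher (0.0547% of genes) and 11 lower (0.1%). Of the 17, 3 were protein-coding, 8 miRNA loci and 5 snoRNAs. The 17 became 227 with TPM as deposited, 39 with TPM rescaled over protein-coding genes, 45 with a pseudocount of 0.1 and 30 with quantile normalization. limma called 43 of 10967 genes (0.392%) at an adjusted p below 0.05, 13 higher (0.119%) and 30 lower (0.274%) in sgMETTL16-1 and sgMETTL16-2. The residual spread in that fit is the difference between 2 guides with 1 degree of freedom, shared across genes, and the lone sgMETTL16-3 culture is assumed to vary in the same way. The prior degrees of freedom were estimated as infinite, so a gene's own disagreement between the first 2 guides did not enter its p: SNORA86, at 10.0 TPM in sgMETTL16-1 and at 0 in the other guides, was called. SNORA104 and MIR4657 were also called, with differences from sgMETTL16-3 of opposite sign in sgMETTL16-1 (-3.85 and -0.46) and sgMETTL16-2 (0.84 and 2.96). Of the loci called lower, PCNA-AS1, SNORD41, SNORD52, SNORD77 and SNORD82 passed the filter of at least 1 TPM only through their value in sgMETTL16-3. Some miRNA loci described below did so as well, and all are among the calls counted here.

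The calls fell mostly on short RNAs at low level: 15 were snoRNAs (6.36% of those tested), 13 miRNA loci (21.3%) and 11 protein-coding genes (0.111%), with 28 of the 43 under a mean of 10 TPM and 20 at 0 in a guide. No gene was called with TPM as deposited or among genes with a mean of at least 10 TPM, where 2444 and 436 genes were under an unadjusted p of 0.05, and quantile normalization left 7. Those 7 were 4 higher and 3 lower, and with TPM rescaled over protein-coding genes the split was 20 higher and 32 lower.

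Of the 4 protein-coding genes called higher in sgMETTL16-1 and sgMETTL16-2, IDH1, the cytosolic NADP-dependent isocitrate dehydrogenase, was the only one at least 2-fold higher in each guide. It stood at 23.5 TPM in sgNS, 55.4 in sgMETTL16-1, 69.6 in sgMETTL16-2 and 19.3 in sgMETTL16-3, a limma difference of 1.10 (SE 0.29, adjusted p = 0.0389). On the centred scale the control lay between the guides, with sgMETTL16-1 0.57 above it and sgMETTL16-3 -0.45 from it. The call was kept in 2 of 11 alternative limma fits, with adjusted p from 0.0407 to 0.443.

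RPS3A, a protein of the small ribosomal subunit, stood at 29.7 TPM in sgNS, 76.5 in sgMETTL16-1, 178 in sgMETTL16-2 and 31.8 in sgMETTL16-3 (limma difference 1.31, SE 0.28, adjusted p = 0.00218). RPL9, of the large subunit, stood at 53.7, 121, 234 and 52.2 TPM in the same order (1.13, SE 0.28, adjusted p = 0.0238). COX7B, a subunit of cytochrome c oxidase, stood at 9.36, 18.8, 36.1 and 6.36 TPM (1.34, SE 0.30, adjusted p = 0.00499). In these 3 genes sgMETTL16-2 was highest and sgMETTL16-1 came next. The calls of RPS3A and COX7B were each kept in 8 of 11 alternative limma fits and that of RPL9 in 3, with adjusted p of up to 0.443 in each. EEF1A1, the elongation factor that brings aminoacyl-tRNA to the ribosome, had the same order at 281, 753, 939 and 266 TPM but did not pass (1.12, limma adjusted p = 0.0627).

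limma called 7 protein-coding genes lower in sgMETTL16-1 and sgMETTL16-2, and in TPM as deposited the 4 described here were lowest in sgNS and alike in sgMETTL16-2 and sgMETTL16-3. HMOX1, the haem-degrading oxygenase induced by oxidative stress, stood at 9.87 TPM in sgNS, 24.7 in sgMETTL16-1, 56.5 in sgMETTL16-2 and 60.3 in sgMETTL16-3 (limma difference -1.21, SE 0.29, adjusted p = 0.0102). CDKN1A, which encodes the cell-cycle inhibitor p21, stood at 59.8, 156, 307 and 325 TPM (-1.11, SE 0.29, adjusted p = 0.0407). The water and glycerol channel AQP3 stood at 3.45, 13.9, 22.7 and 28.2 TPM (-1.17, SE 0.30, adjusted p = 0.0303). CPLX2, a regulator of vesicle fusion, stood at 6.52, 8.60, 23.9 and 23.01 TPM (-1.17, SE 0.30, adjusted p = 0.0348). On the centred scale sgMETTL16-1 lay nearest the control in these 4 genes, below it in CPLX2 (-0.28), and the difference of the arm came mainly from it: CDKN1A was -1.52 from sgMETTL16-3 in sgMETTL16-1 and -0.69 in sgMETTL16-2. The call was kept in 6 of 11 alternative limma fits for HMOX1, 5 for AQP3, 5 for CPLX2 and 4 for CDKN1A, with adjusted p of up to 0.538, 0.443, 0.625 and 0.443. The other 3 called lower were LOC102724652 and the readthrough loci ABHD14A-ACY1 and URGCP-MRPS24, whose reads can be shared with other copies or with their parent genes.

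**Figure D2:**
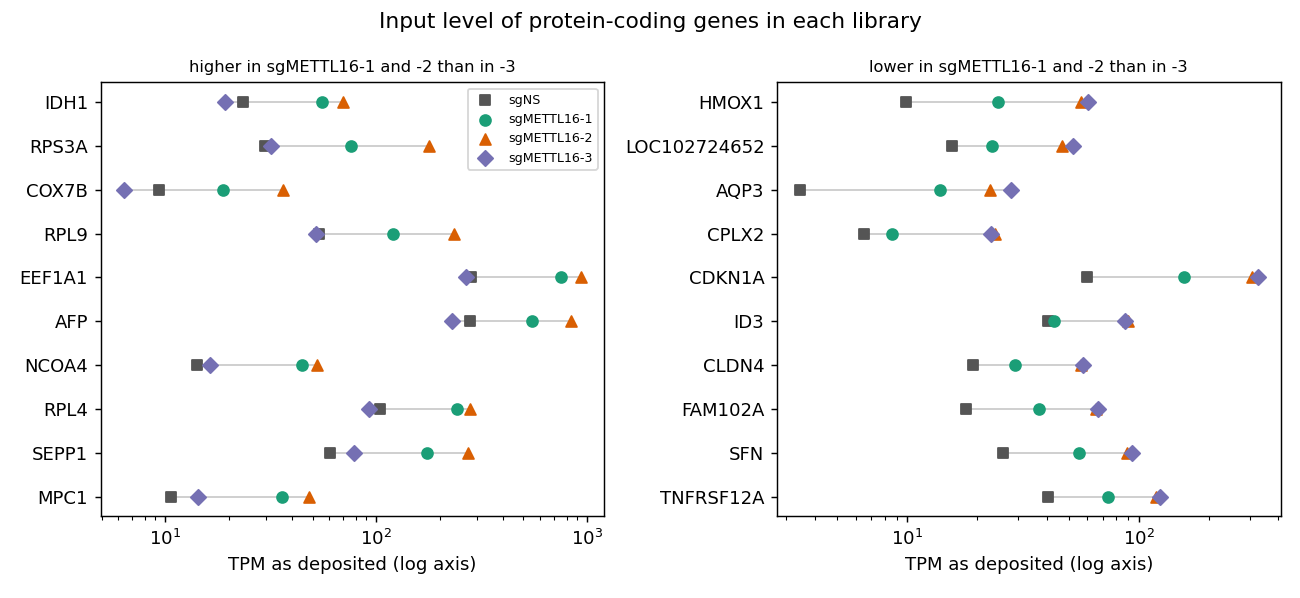
TPM as deposited (log axis) in each of the 4 inputs for the first 10 protein-coding genes in each direction, ordered by whether they met the whole naming rule and then by p; each symbol is 1 library. On the left sgMETTL16-3 and sgNS lie together at the low end, and on the right sgMETTL16-2 and sgMETTL16-3 lie together at the high end with sgMETTL16-1 between them and sgNS.

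Of the other gene types, the snoRNA SNORD28 was at 11.1 TPM in sgNS, 13.9 in sgMETTL16-1, 14.6 in sgMETTL16-2 and 2.66 in sgMETTL16-3 (limma difference 1.52, adjusted p = 0.00169). sgMETTL16-3 stood below the other 3 libraries. RNY3, a Y RNA bound by the Ro60 protein, was at 1900.7 TPM in sgNS, 1231 in sgMETTL16-1, 5720 in sgMETTL16-2 and 6124 in sgMETTL16-3 (-1.74, adjusted p = 0.00169), with sgMETTL16-1 the lowest library. After centring sgMETTL16-1 was -1.26 from sgNS, sgMETTL16-2 0.81 and sgMETTL16-3 1.52. SNORD116-17 and SNORD116-19, near-identical copies with identical values, were at 34.9, 19.8, 28.4 and 35.5 TPM (-1.10, adjusted p = 0.0459).

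limma called 13 miRNA loci, 5 higher and 8 lower in sgMETTL16-1 and sgMETTL16-2. The 7 of them that were 2-fold apart in both guides are shown with their mature sequences. Sequences are RefSeq's (GRCh38.p14), with seed bases 2 to 8 in capitals, and all 13 loci matched.
hsa-miR-3064-3p: uUGCCACAcugcaacaccuuaca
hsa-miR-3064-5p: uCUGGCUGuuguggugugcaa
hsa-miR-378h: aCUGGACUuggugucagaugg
hsa-miR-647: gUGGCUGCacucacuuccuuc
hsa-miR-3916: aAGAGGAAgaaauggcugguucucag
hsa-miR-4687-3p: uGGCUGUUggagggggcaggc
hsa-miR-4687-5p: cAGCCCUCcucccgcacccaaa
hsa-miR-4728-3p: cAUGCUGAccucccuccugccccag
hsa-miR-4728-5p: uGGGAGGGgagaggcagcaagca
hsa-miR-6785-5p: uGGGAGGGcguggaugauggug
hsa-miR-4728-5p and hsa-miR-6785-5p share a seed. Among the loci called higher, MIR3064 was at 1.24 TPM in sgNS, 3.34 in sgMETTL16-1, 4.82 in sgMETTL16-2 and 0 in sgMETTL16-3. MIR378H was at 1.2, 2.44, 4.76 and 0 TPM, and MIR647 at 3.03, 6.42, 2.86 and 0 TPM. All 5 loci called higher were at 0 in sgMETTL16-3. Among those called lower, MIR4687 was at 5.37 TPM in sgNS, 4.75 in sgMETTL16-1, 12.5 in sgMETTL16-2 and 21.1 in sgMETTL16-3 (limma adjusted p = 5.94e-06). MIR3916 was at 1.36, 1.83, 3.58 and 12.1 TPM. MIR4728 was at 0, 0, 1.51 and 2.60 TPM, and MIR6785 at 0, 0.87, 0.84 and 2.86 TPM. The means of MIR4728 and MIR6785 were 1.03 and 1.14 TPM. They passed the filter of at least 1 TPM only through their value in sgMETTL16-3, so the filter itself favoured a high value there. MIR3650, also called lower, stood at 2.37 TPM in sgMETTL16-2 and 2.06 in sgMETTL16-3 as deposited. Without its value in sgMETTL16-3 it would not have passed the filter either. MIR4657, called higher, was at 10.9 TPM in sgMETTL16-2 and at 0 in every other input. MIR4315-1 and MIR4315-2, both called lower, had identical values in each input, so the same signal is counted under both names. On the centred scale all loci called lower were highest in sgMETTL16-3. Their hairpins are 53 to 96 bases long across the 13 loci and the reads 51 bases, so a value at such a locus rests on few positions and does not tell a mature miRNA from its precursor or host transcript.

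Pair by pair, most protein-coding differences from sgMETTL16-3 fell into 2 groups. The first group was lower in sgMETTL16-1 than in sgMETTL16-3: 130 genes (1.19%), 88 of them protein-coding, against 36 higher (0.328%). The balance of lower and higher turned with the scaling: 32 genes were lower and 442 higher with TPM as deposited, 27 lower and 52 higher among genes with a mean of at least 10 TPM, and 88 lower and 62 higher after quantile normalization. Among the 88 protein-coding genes lower on the centred scale, sgNS was nearer sgMETTL16-1 than sgMETTL16-3 in 86, or 97.7%, against 52.4% of all protein-coding genes tested, and sgMETTL16-2 was nearer sgMETTL16-3 in 45, or 51.1%, against 31.1%. Besides the called genes it held ID3, an inhibitor of basic helix-loop-helix factors, at 40.5 TPM in sgNS, 42.9 in sgMETTL16-1, 89.8 in sgMETTL16-2 and 87.4 in sgMETTL16-3. TIMP1, an inhibitor of matrix metalloproteinases, stood at 24.0, 89.4, 164 and 154 TPM. The tight-junction protein CLDN4 stood at 19.2, 29.2, 56.5 and 57.3 TPM. None of ID3, TIMP1 and CLDN4 passed limma (adjusted p = 0.0694, 0.219 and 0.0786).

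Several lists of stress and signalling genes had their lowest centred median in sgMETTL16-1. The 23 immediate-early genes tested had medians over sgNS of 0.27 in sgMETTL16-1, 0.45 in sgMETTL16-2 and 0.85 in sgMETTL16-3. Of these genes, 6 were at least 2-fold lower in sgMETTL16-1 than in sgMETTL16-3, against 1.19% of all genes. The count was 0 with TPM as deposited and 1 after quantile normalization or at a mean of at least 10 TPM. FOSL1, a partner of JUN in the AP-1 factor, stood at 8.76 TPM in sgNS, 14.7 in sgMETTL16-1, 26.3 in sgMETTL16-2 and 24.7 in sgMETTL16-3. The corresponding medians over sgNS were 0.35, 0.59 and 0.63 for 24 extracellular matrix and TGF-beta targets, 0.19, 0.39 and 0.58 for 21 YAP and TEAD targets, and 0.05, 0.25 and 0.58 for 22 genes of MAP kinase feedback. Over all genes tested they were -0.08, -0.13 and -0.03. With TPM as deposited the medians were 0.91, 1.23 and 1.02 for immediate-early genes, 0.99, 1.37 and 0.80 for matrix genes, 0.83, 1.17 and 0.75 for YAP and TEAD targets, and 0.68, 1.03 and 0.75 for MAP kinase feedback, against 0.56, 0.65 and 0.14 for all genes. All 4 lists were then highest in sgMETTL16-2, and matrix genes and YAP targets were lowest in sgMETTL16-3. No member of these 4 lists passed limma. The lists share members, FOSL1 and DUSP5 among them. For the 12 NF-kB and inflammation genes tested the medians over sgNS were 0.35, 0.81 and 0.94, and for 7 epithelial markers 0.16, 0.73 and 0.96. Under TPM as deposited sgMETTL16-1 was still lowest in both, at 0.98 and 0.79, but sgMETTL16-2 was highest, at 1.59 and 1.51.

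For 30 p53 targets tested the medians over sgNS were 0.18, 0.32 and 0.33 (0.81, 1.10 and 0.50 with TPM as deposited), and 4 members were at least 2-fold lower in sgMETTL16-1 than in sgMETTL16-3, against 1.19% of all genes. That count was 1 with TPM as deposited, after quantile normalization and at a mean of at least 10 TPM. CDKN1A was the only one called. GDF15, a secreted stress cytokine, stood at 152 TPM in sgNS, 465 in sgMETTL16-1, 680.5 in sgMETTL16-2 and 696 in sgMETTL16-3. CCNG1, another p53 target, took a different order at 5.93, 15.0, 27.7 and 7.17 TPM, with sgMETTL16-3 near the control. Members of the list thus took different orders across the guides.

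The promoter of CLDN4 is printed because it holds 2 matches to TGANTCA, a pattern wider than the core bound by AP-1. Matches are given in capitals (chr7:73830746-73831045, plus strand, RefSeq GRCh38.p14).
CLDN4: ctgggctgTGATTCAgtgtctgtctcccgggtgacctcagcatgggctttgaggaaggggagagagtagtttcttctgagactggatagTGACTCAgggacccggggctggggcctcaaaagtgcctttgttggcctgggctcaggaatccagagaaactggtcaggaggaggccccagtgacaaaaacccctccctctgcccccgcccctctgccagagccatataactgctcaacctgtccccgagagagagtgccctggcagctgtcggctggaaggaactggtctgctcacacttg
The motif reads the same on both strands, and no other was searched. It occurred in 7 of 63 windows of 300 bases (11.1%) for protein-coding genes lower in sgMETTL16-1 than in sgMETTL16-3. For those higher in sgMETTL16-1 the share was the same, 1 of 9 windows (11.1%). It was 4.17% for all protein-coding genes tested and 7.76% for all RefSeq windows.

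The second group was higher in sgMETTL16-2 than in sgMETTL16-3: 151 genes (1.38%), 137 of them protein-coding, against 54 lower (0.492%), of which 3 were protein-coding. Higher outnumbered lower under every scaling run, with 2043 against 16 for TPM as deposited and 293 against 46 after quantile normalization. Among the 137, sgNS was nearer sgMETTL16-3 in 126, or 92.0%, against 66.2% of all protein-coding genes tested, and sgMETTL16-1 was nearer sgMETTL16-3 in 118, or 86.1%, against 50.7%. Beyond RPS3A, COX7B and RPL9 it held EIF3E, a subunit of translation initiation factor eIF3, at 9.42 TPM in sgNS, 19.04 in sgMETTL16-1, 45.4 in sgMETTL16-2 and 10.8 in sgMETTL16-3. The cytosolic chaperone HSP90AA1 stood at 30.8, 65.1, 135 and 35.0 TPM, and CCT2, a subunit of the TRiC chaperonin, at 6.06, 13.8, 28.3 and 6.57 TPM. Each was highest in sgMETTL16-2, with sgMETTL16-3 next to the control. None of EIF3E, HSP90AA1 and CCT2 passed limma (adjusted p = 0.332, 0.254 and 0.262).

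By list, 13 of 77 cytoplasmic ribosomal protein genes, 5 of 28 cytosolic chaperones, 4 of 42 translation initiation factors and 4 of 76 nuclear respiratory chain genes were at least 2-fold higher in sgMETTL16-2 than in sgMETTL16-3, and none of these lists had a member 2-fold lower. Over all genes the share was 1.38%. With TPM as deposited the counts were 34, 20, 18 and 25, and the share over all genes was 18.6%. The chaperone median was 0.71 above sgMETTL16-3 in sgMETTL16-2 and 0.24 in sgMETTL16-1, where all genes tested had -0.22 and -0.06. limma called 2 ribosomal protein genes, RPS3A and RPL9, and 1 respiratory chain gene, COX7B. Ribosomal protein genes have many processed pseudogenes with which reads can be shared.

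Secreted liver proteins split. Of 60 tested, 5 were at least 2-fold higher in sgMETTL16-2 than in sgMETTL16-3, yet the list's median was -0.36 (0.25 with TPM as deposited). Albumin (ALB) stood at 354 TPM in sgNS, 1099 in sgMETTL16-1, 1668 in sgMETTL16-2 and 477 in sgMETTL16-3. Alpha-fetoprotein (AFP) stood at 278, 550, 843 and 230 TPM. The apolipoprotein APOA1 stood at 1062, 1285, 1168 and 1228 TPM. ALB and AFP did not pass limma (adjusted p = 0.262 and 0.127).

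Replication-dependent histone genes, expressed with DNA synthesis, had medians below the control in each guide, least so in sgMETTL16-1. Their medians over sgNS were -1.60 in sgMETTL16-1, -2.36 in sgMETTL16-2 and -2.03 in sgMETTL16-3 over 54 genes. sgMETTL16-1 was the nearest guide to sgNS for 48 of them. With TPM as deposited the medians were -0.96, -1.58 and -1.86, which turned the order of the other 2 guides, and sgMETTL16-1 was nearest for 52. HIST1H4C stood at 1303 TPM in sgNS, 566 in sgMETTL16-1, 285 in sgMETTL16-2 and 201 in sgMETTL16-3. HIST1H1B, a linker histone, stood at 24.4, 23.3, 9.56 and 7.67 TPM. At least 2-fold higher in sgMETTL16-1 than in sgMETTL16-2 were 7 of the 54, against 0.483% of all genes. Another count, of those 2-fold higher in sgMETTL16-1 than in sgMETTL16-3, was 3, against 0.328%.

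On the centred scale the other cell-cycle lists placed sgMETTL16-1 nearest the control as well. The medians over sgNS were -0.31, -0.66 and -0.69 for 42 DNA replication and S phase genes, with sgMETTL16-1 nearest for 33. For 39 mitosis genes they were -0.31, -0.40 and -0.81, with sgMETTL16-1 nearest for 29. With TPM as deposited the directions turned in the first 2 guides, to 0.32, 0.12 and -0.52 for S phase and 0.32, 0.38 and -0.64 for mitosis, and sgMETTL16-1 was nearest for 18 and 22. TOP2A, the topoisomerase that separates sister chromatids, stood at 5.46 TPM in sgNS, 8.48 in sgMETTL16-1, 10.8 in sgMETTL16-2 and 2.87 in sgMETTL16-3. No histone, S phase or mitosis gene passed limma.

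Between sgMETTL16-1 and sgMETTL16-2, 53 genes were at least 2-fold higher (0.483%) and 74 lower (0.675%) in sgMETTL16-1. The balance was 40 higher and 179 lower with TPM as deposited, 48 and 103 after quantile normalization, and 76 and 151 with TPM rescaled over protein-coding genes. SPP1, the secreted phosphoprotein osteopontin, stood at 10.5 TPM in sgNS, 27.8 in sgMETTL16-1, 117 in sgMETTL16-2 and 32.5 in sgMETTL16-3. HIF1A, the oxygen-regulated transcription factor, stood at 5.12, 16.2, 42.1 and 16.7 TPM. In SPP1 and HIF1A sgMETTL16-2 stood above the other guides. After centring sgMETTL16-1 was -0.68 and -0.51 from sgMETTL16-3 in these genes. G6PC, the last enzyme of glucose release in liver, was instead highest in sgMETTL16-1, at 3.46, 21.6, 9.23 and 8.93 TPM.

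The spliceosomal and other structural small RNAs were highest in sgMETTL16-3 on the centred scale, an order that turned with TPM as deposited (1.45, 1.39 and 1.35 over sgNS). The medians over sgNS of the 43 tested were 0.82 in sgMETTL16-1, 0.61 in sgMETTL16-2 and 1.18 in sgMETTL16-3. Of these, 3 were at least 2-fold lower in sgMETTL16-1 than in sgMETTL16-3, against 1.19% of all genes. That count was 1 with TPM as deposited, after quantile normalization and at a mean of at least 10 TPM. SNORD118, the U8 RNA of ribosome maturation, stood at 4.14 TPM in sgNS, 124 in sgMETTL16-1, 147 in sgMETTL16-2 and 175 in sgMETTL16-3. All guides stood above the control in SNORD118, and it was -0.96 and -0.86 from sgMETTL16-3 in the first 2 guides (limma adjusted p = 0.185). The m6A machinery (28 genes) and the methionine cycle and polyamine list (33 genes) were the pathways nearest to METTL16. Their medians from sgMETTL16-3 were 0.06 and 0.02 in sgMETTL16-1 (0.52 and 0.49 with TPM as deposited), and 0.24 and 0.04 in sgMETTL16-2 (0.85 and 0.65). In the second list 1 gene, SMOX, was at least 2-fold lower in sgMETTL16-1 than in sgMETTL16-3 (-1.04). The count was 0 with TPM as deposited.

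**Figure D3:**
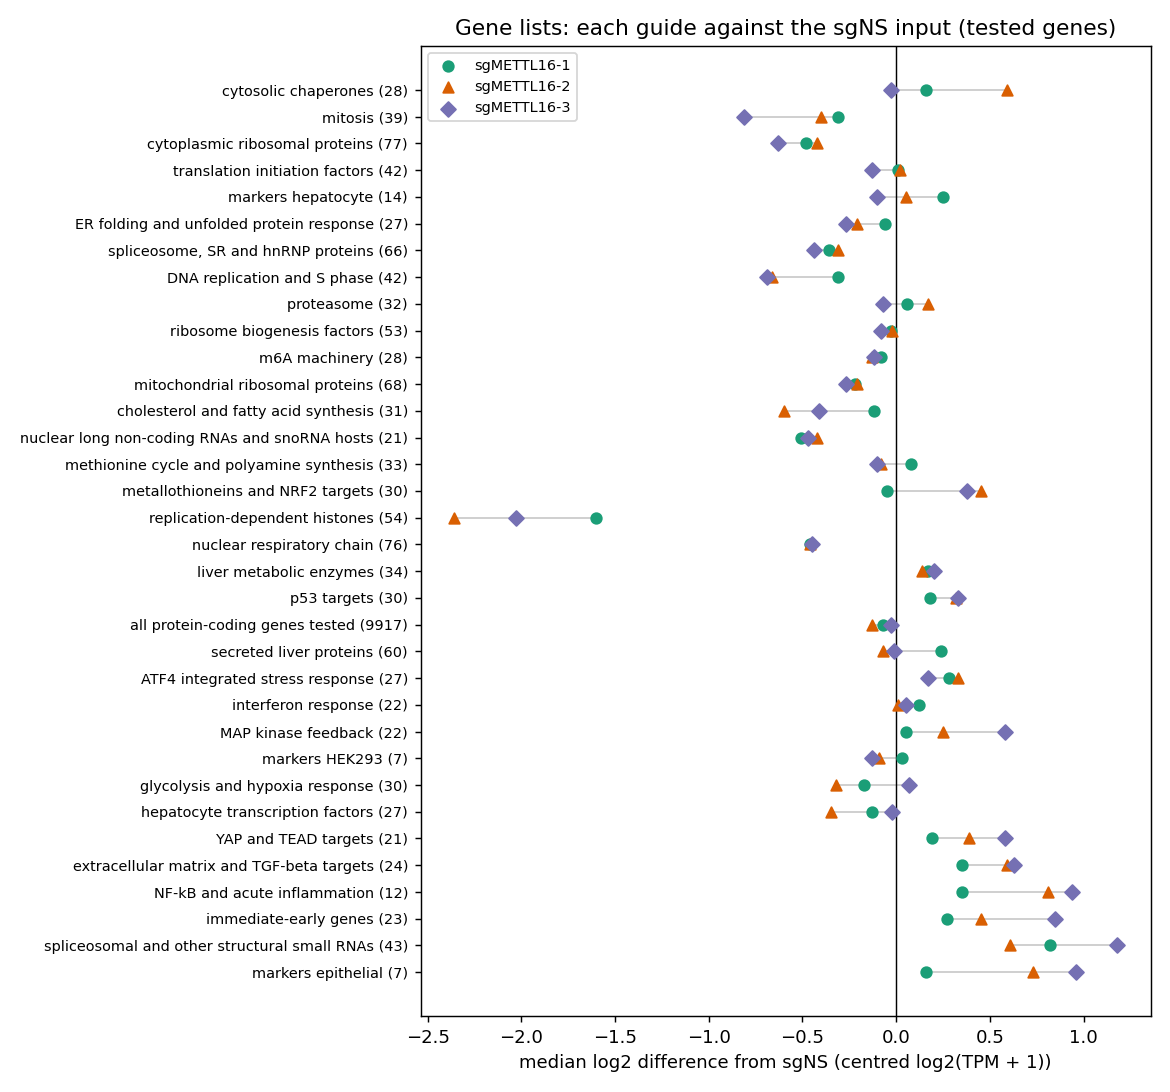
Median log2 difference from sgNS (centred log2(TPM + 1)) of the tested members of each gene list in the 3 guides; the number of tested genes follows each name, and lists are ordered by their median difference between the first 2 guides and the third. Histone genes lie lowest in all guides, from -2.36 to -1.60, and immediate-early genes run from 0.27 in sgMETTL16-1 to 0.85 in sgMETTL16-3.

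Differences from the control and between guides also moved with the genomic span of the gene. In the 2480 shortest protein-coding genes (0.276 to 11.6 kb) the median over sgNS was -0.25 in sgMETTL16-1, -0.41 in sgMETTL16-2 and -0.10 in sgMETTL16-3, whereas in the 2479 longest (66.5 to 1550 kb) it was 0.05, 0.06 and 0. On the centred scale sgMETTL16-2 thus differed most from the others in short genes. Without centring, all bins of a guide shift up against sgNS by the same amount. The library medians were 2.45 in sgNS and 3.23 in sgMETTL16-2. The signs, and the bin with the largest difference, therefore depend on the centring. The genes lower in sgMETTL16-1 than in sgMETTL16-3 had a median span of 12.7 kb and those higher in sgMETTL16-2 than in sgMETTL16-3 one of 21.9 kb, against 28.2 kb for all protein-coding genes tested. The part of gene span in the guide differences was not tested.

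**Figure D4:**
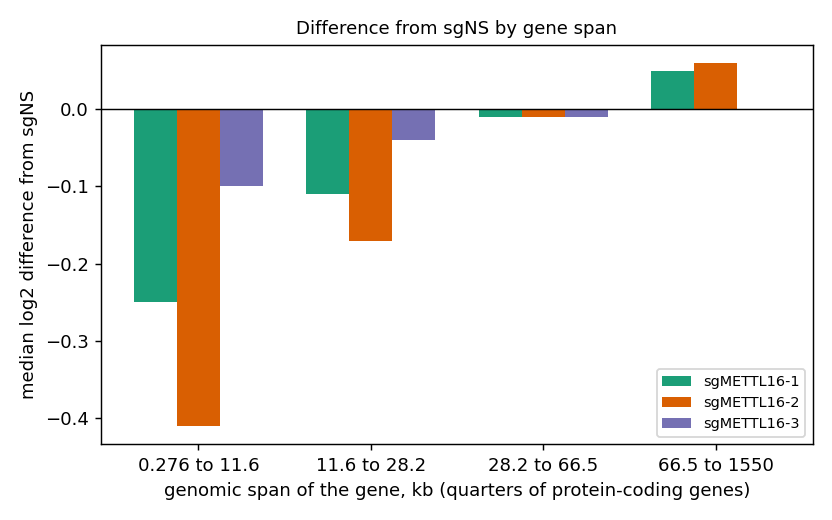
Median log2 difference from sgNS (centred log2(TPM + 1)) in each guide in 4 bins of genomic span in kb, over 9917 protein-coding genes. The bars of the shortest genes reach -0.41 in sgMETTL16-2 and those of the longest lie between 0 and 0.06.

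Footprint libraries of the same cultures gave a separate measurement. Of the 137 protein-coding genes higher in sgMETTL16-2 than in sgMETTL16-3 in input, 98 were above 0 in the footprints of all 3 guides, and 65 of these (66.3%) were also higher in sgMETTL16-2, against 45.7% of 2321 genes. Of the genes lower in sgMETTL16-1 than in sgMETTL16-2, 17 of 21 (81.0%) kept that side, against 49.5%. Among those higher in sgMETTL16-1 than in sgMETTL16-2 only 3 could be followed, and 1 kept its side. Among those higher in sgMETTL16-1 than in sgMETTL16-3, 5 of 7 kept their side. Of the 88 lower in sgMETTL16-1 than in sgMETTL16-3 only 7 could be followed, and 3 kept their side.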

How the data were processed

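RNA from input and from ribosome footprints of 17 to 34 nt was depleted of rRNA and read as single ends of 51 bases, per the labels' protocols. The authors deposited TPM values per gene symbol for 8 libraries. STAR and RSEM 1.2.31 on GRCh38 are named in the submitters' processing notes. Read counts are not used here, so depth is unknown and no counting interval is given.

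Input TPM was taken as log2(TPM + 1), centred on each library's median gene, for genes with a mean of at least 1 TPM. limma 3.58.1 (R 4.3.3, eBayes with an intensity trend) compared sgMETTL16-1 and sgMETTL16-2 with sgMETTL16-3, with Benjamini-Hochberg adjustment over all 10967 genes. All other comparisons are descriptions with no test, since each guide is 1 culture. On simulated libraries of 10967 genes, changes of 1 on the log2 scale were recovered in 33% of cases and changes of 2 in 97% (100 genes each), and 7 unchanged genes were called. All simulated libraries were drawn independently, with the spread between sgMETTL16-1 and sgMETTL16-2 at a similar level and no shift of scaling. sgMETTL16-3 was thus made to vary like the other guides, so the simulation does not give the error of the calls on these data. Gene types, spans and sequences came from RefSeq (GRCh38.p14): 23987 symbols matched directly, 1395 by an older name and 1448 not. No transcript GC was used.

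The comparison and the 36 gene lists were chosen with earlier results of these data known. Named genes were METTL16, MAT2A, up to 12 protein-coding and 4 other genes in each direction (called, mean of at least 10 TPM, 2-fold in both guides, filled by smallest p) and up to 4 of each list by smallest p. Examples for single pairs of guides, low-level miRNA loci (those 2-fold in both guides), APOA1 and SNORA86 were chosen after their values were seen. Alternatives tried were other scalings, pseudocounts, filters, limma settings, fold limits and leaving out a guide.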

Additional observations from a re-analysis of the deposited data

How the results depend on the processing

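The count of 43 limma calls moved to 0 with TPM as deposited, 7 with quantile normalization, 103 with no filter on low values, 0 with a mean of at least 10 TPM, 5 among protein-coding genes only (an alternative chosen after seeing the data) and 27 with no intensity trend. It stayed within 1.5 times under the other settings. The 17 genes 2-fold apart in both guides became 227 with TPM as deposited, 39 with TPM rescaled over protein-coding genes, 30 with quantile normalization, 45 and 26 with pseudocounts of 0.1 and 0.5, 70 with no filter, 3 among protein-coding genes only, 501 at 1.5-fold and 2 at 4-fold. Leaving out a guide in turn gave 166 to 205, a fold count against sgMETTL16-3 in the single guide left, with no residual degree of freedom for a test.

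The median absolute difference from sgNS became 0.57 for sgMETTL16-1 and 0.66 for sgMETTL16-2 with TPM as deposited, and 0.14 for sgMETTL16-3 with no filter. The share of genes nearest sgNS in sgMETTL16-1, sgMETTL16-2 and sgMETTL16-3 was 21.8%, 12% and 66.2% with TPM as deposited, 41.8%, 18.7% and 39.5% with quantile normalization, 24.5%, 13.2% and 62.4% with no filter, and 43.1%, 21.1% and 35.8% with a mean of at least 10 TPM. With TPM rescaled over protein-coding genes it was 16.7% in sgMETTL16-2 and 44.2% in sgMETTL16-3, with a pseudocount of 0.1 16.7% and 44.5%, and among protein-coding genes only 17.0% in sgMETTL16-2. Of genes lower in sgMETTL16-1 than in sgMETTL16-3, the share with sgNS nearer sgMETTL16-1 was 83.8%, and became 68.8% with TPM as deposited, 76.0% with no filter and 97.7% among protein-coding genes only. Of genes higher in sgMETTL16-2 than in sgMETTL16-3, the share with sgNS nearer sgMETTL16-3 was 87.4% and became 95.4% with TPM as deposited. Among the named genes' limma differences under the alternatives, 72 values lost the threshold, 5 gained it, and no called value changed sign. Of the list medians, 218 moved by less than the SD between the first 2 guides and 121 by more; the orders of guides that turned without centring stand beside each list. The cause of these shifts was not tested. Each group holds 1 culture, and the labels' numbers name guides. No paired analysis was possible because no group has a second replicate number.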
